A study of Homo sapiens with 4 samples.

Results

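HIF1α ChIP-seq peaks that lay at promoters and were called in replicate 1 alone are described here. Of 1689 replicate 1 peaks, 1647 lay on chromosomes 1 to 22 and X, and 1075 of these overlapped a window of 1 kb on either side of an annotated transcription start site. A total of 898 of the 1075 (83.5%) overlapped none of the 16953 replicate 2 peaks by 1 bp or more, against 81.5% of all 1647 and 77.6% of those away from start sites. They made up 53.2% of all replicate 1 peaks. The 898 were chosen by the positions of both peak lists, so their widths and their distances to start sites and to replicate 2 peaks are given only as a description. The other 177 promoter peaks, which a replicate 2 peak overlapped, and the 444 replicate 1-only peaks away from start sites served for comparison.

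The cells were HK2, a line of human renal proximal tubule that was immortalized for culture. All 4 libraries, 2 of HIF1α ChIP-seq and 2 of RNA-seq, carry the label of HK2 cells given 50 μM FG-4592, dissolved in DMSO. FG-4592 (roxadustat) is a small molecule that blocks the HIF prolyl hydroxylases, and both assays used a treatment of 6 h. Untreated cells were not analysed here, so all values are levels under FG-4592 and no response to it was measured. Nothing in the labels says that the replicates were separate cultures, and the spread between them may be technical.

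HIF1α is the oxygen-regulated subunit of hypoxia-inducible factor 1. Prolyl hydroxylases mark it for destruction through VHL when oxygen is present, and once stabilized it pairs with ARNT and binds hypoxia response elements, whose core reads ACGTG or GCGTG. In kidney tubules it is best known for switching cells toward glycolysis and for genes of oxygen supply and iron handling. ChIP-seq recovers the DNA bound by a protein with an antibody and calls peaks where reads pile up. The peak lists give positions and no height or score, so the depth is unknown and no peak could be ranked by strength.

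Of the proximal tubule markers, *LRP2*, *SLC22A6*, *SLC22A8* and *HNF4A*, which encode megalin, organic anion transporters and a nuclear receptor of mature tubules, were listed at an FPKM of 0 in both RNA-seq libraries. FPKM is fragments scaled by transcript length and by mapped fragments, summed here over the transcripts of a gene. Only 2 of the 13 markers reached a mean FPKM of 1, namely *GGT1*, with 62.3 in replicate 1 and 58.5 in replicate 2, and *SLC5A2*, with 2.59 and 1.70. Of 7 epithelial and culture markers, the keratins *KRT8* (166.4 and 161.9), *KRT19* (184.1 and 176.7) and *KRT18* (47.5 and 48.0) and the epithelial adhesion gene *EPCAM* (38.96 and 45.5) were present, as was the mesenchymal filament *VIM* (1294 and 802). The epithelial cadherin *CDH1* was at 0.211 and 0.379, and *CDH2* at 63.8 and 63.7. The cells thus carried few of the defining transcripts of the tubule segment in their label. None of these 13 markers, nor of the 7, had a replicate 1-only promoter peak, and since only 4.61% of all protein-coding genes had one, a count of 0 does not set lists this short apart.

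The following sequences are 29 bases of the GRCh37 reference around the response element core nearest the peak centre. They are written 5′ to 3′ on the strand of that core, with every core on either strand in capitals. The first set shows cores preceded by T, at genes of glycolysis, acid handling, growth control, iron uptake and lipid synthesis. The peak centres of *CA9*, *ENO2* and *LPIN3* lay in exons, those of *TPI1* and *PFKP* in introns of an annotated transcript, and those of *DDIT4* and *TFRC* between genes.
CA9, chr9:35673895-35673923, minus strand: tgtacgggctgtACGTGcattggaaacga
ENO2, chr12:7023614-7023642, plus strand: acccgcgctcgtACGTGcgcctccgccgg
TPI1, chr12:6977240-6977268, minus strand: gagtctggggctACGTGcggcggcgcacg
PFKP, chr10:3111230-3111258, plus strand: ccacgagcgcctACGTGatgcccggcccg
DDIT4, chr10:74033545-74033573, plus strand: agaacgttgcttACGTGcgcccggagtcc
TFRC, chr3:195809033-195809061, minus strand: cctcgcgagcgtACGTGcctcaggaagtg
LPIN3, chr20:39969575-39969603, minus strand: ccgcctctacctACGTGcacaggctccac

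The second set shows cores preceded by G, the form that was less frequent here than in promoter peaks shared with replicate 2 (values with the motif tests). The peak centres of *SLC2A1*, *SLC16A3* and *BHLHE40* lay in introns, and those of *HK2*, *GBE1*, *ALKBH5* and *VLDLR* in exons.
SLC2A1, chr1:43423963-43423991, plus strand: aggtcgtgtgcgACGTGccgctcccgggc
HK2, chr2:75061013-75061041, minus strand: gcctgagatgggACGTGtggtccgtggct
SLC16A3, chr17:80186838-80186866, plus strand: cgccaggcggtgACGTGcgcgggggacgt
GBE1, chr3:81810582-81810610, minus strand: ccgccctggctgACGTGcccgaactggcc
BHLHE40, chr3:5020936-5020964, plus strand: ggcagtggccagACGTGcctggagtcaca
ALKBH5, chr17:18086369-18086397, plus strand: gccgtcaccgggACGTGactcgtgaaacg
VLDLR, chr9:2622183-2622211, minus strand: cccagagcgcggACGTGcccatggtgccc

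The next set holds other forms and pairs of cores. *PLIN2*, *MXI1* and *INSIG1* carried GCGTG nearest the centre, *SREBF1* and *BHLHE41* the palindrome CACGTG, which reads as a core on both strands, and *GYS1*, *HK1* and *P4HA2* held cores on the same strand that start 9 bp apart, where the core of *HK1* nearest the centre is also preceded by G. The centres lay in exons for *GYS1* and *INSIG1* and in introns for the others.
PLIN2, chr9:19127559-19127587, minus strand: gcttgggacaggGCGTGctgccgcgggtc
MXI1, chr10:111969850-111969878, plus strand: gccggggctccgGCGTGgccaccagtcac
INSIG1, chr7:155089474-155089502, minus strand: caccgcccagggGCGTGgcctgagcttgc
SREBF1, chr17:17739768-17739796, plus strand: gcgtagaggcgCACGTGtcccggcccgga
BHLHE41, chr12:26278002-26278030, plus strand: agcacccagctCACGTGcggaacgtacca
GYS1, chr19:49496842-49496870, plus strand: aagaggaaaggaGCGTGgaggACGTGtgg
HK1, chr10:71078327-71078355, plus strand: cctACGTGggggACGTGcaggatgatgcg
P4HA2, chr5:131563618-131563646, minus strand: ggacgcaggcagGCGTGtggaGCGTGagg

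For a pair of genes whose peaks were centred outside any annotated gene, the bases within 100 bp of the centre are given, on the plus strand of GRCh37. *INSIG2* encodes a sterol-sensitive retention protein of the endoplasmic reticulum and *KDM4B* a histone demethylase. Each stretch holds 2 cores, in capitals, written as CACGT or CACGC where the core is on the minus strand, and neither touches an annotated exon.
INSIG2, chr2:118845659-118845859: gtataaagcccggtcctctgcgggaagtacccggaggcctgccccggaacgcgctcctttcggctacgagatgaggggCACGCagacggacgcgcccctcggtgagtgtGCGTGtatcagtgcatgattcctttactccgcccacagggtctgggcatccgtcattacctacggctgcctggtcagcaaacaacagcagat
KDM4B, chr19:4968529-4968729: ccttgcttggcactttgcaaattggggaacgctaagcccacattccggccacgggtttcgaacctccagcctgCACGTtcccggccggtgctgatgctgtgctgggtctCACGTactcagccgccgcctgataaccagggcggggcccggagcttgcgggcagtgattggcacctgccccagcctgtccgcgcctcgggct

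Nearly all of these promoter peaks held a response element core. ACGTG or GCGTG, on either strand, lay within 100 bp of the centre in 830 of 898 peaks (92.4%, Wilson 95% interval 90.5 to 94.0). A window of the same length around all 219838 distinct annotated start sites held one in 34.7%, and around the 146028 start sites of protein-coding genes in 37.7%. Windows of the same peaks moved 1 kb to either side held one in 31.5% (two-sided Fisher's exact test, p = 2.09e-221, with an odds ratio of 26.5). That test took each centre and its own flanks as unrelated windows and did not use their pairing. Both cores contain CG, and no comparison here was matched for base composition. GGGCGG, which holds no core, was also in 59.4% of the peak windows, 15.9% of the flanks and 29.3% of all start site windows. The part of base composition in the core differences was not tested. Peaks of one library are not replicates, so these intervals and p-values cover counting error only.

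The core was concentrated at the peak centre. In the 830 peaks the nearest core lay a median of 18 bp from the centre, with 297 (35.8%) within 10 bp, 520 (62.7%) within 25 bp and 718 (86.5%) within 50 bp. There were 16.5 cores per kb within 20 bp of the centre and 2.95 per kb from 200 bp to 500 bp. The 177 shared promoter peaks had more, 21.6 and 3.46 per kb over the same ranges, a difference that was not tested. The 444 peaks away from start sites had 15.8 per kb within 20 bp and 1.78 per kb over the outer range.

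**Figure D1:**
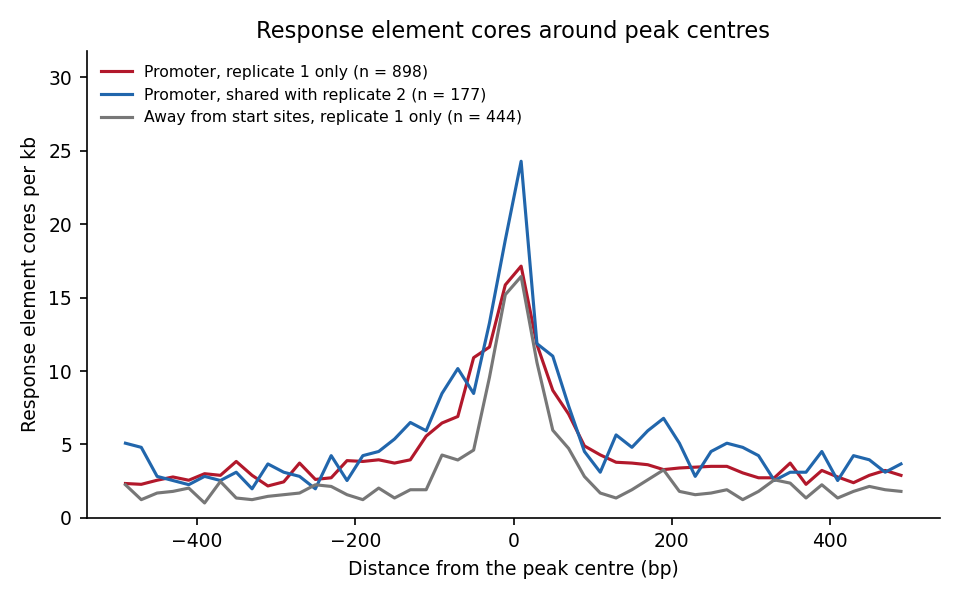
Density of ACGTG or GCGTG, in cores per kb on both strands, by distance in bp from the peak centre, in bins of 20 bp, with a line each for the 898 promoter peaks of replicate 1 only, the 177 promoter peaks shared with replicate 2 and the 444 replicate 1-only peaks away from start sites. All are highest at the centre, where the 898 average 16.5 cores per kb within 20 bp, the shared peaks 21.6 and those away from start sites 15.8.

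No difference in the share with at least 1 core was detected between promoter peaks with and without a replicate 2 peak, and both shares were near their upper limit. The 177 shared promoter peaks had a core within 100 bp of the centre in 92.1%, a difference of 0.337 percentage points with an interval from -3.34 to 5.50 (Fisher's exact test, two-sided, adjusted p = 0.938). The sign of this small difference changed in 7 alternative settings, none of which passed. One of them, chosen after the data were seen, asked for at least 2 cores within 100 bp, which 500 of the 898 (55.7%) and 115 shared promoter peaks (65.0%) held, a difference of -9.29 points with an interval from -16.7 to -1.33 (Fisher's exact test, two-sided, p = 0.0247, adjusted p = 0.0770). Over all the alternatives the adjusted p ran from 0.0770 to 1 (Fisher's exact test). P-values here were adjusted by the Benjamini-Hochberg method over 28 tests, 14 motifs against each of the other groups of peaks. In replicate 1-only peaks away from start sites the share was 86.7%, so that promoter peaks were 5.72 points above them (2.29 to 9.52, Fisher's exact test, adjusted p = 0.00481). That difference was 1.02 points with a search of 50 bp around the centre, 3.82 with a promoter window of 500 bp and 3.49 with protein-coding start sites only, all short of the threshold of 0.05, and 16.0 when replicate 2 was left out. The last setting also changes the groups, since it adds the 128 shared peaks away from start sites, of which 40.6% held a core, to the 444. The difference changed sign, to -3.74 points, when ACGTG alone was sought. For at least 2 cores, the setting chosen after the data were seen, it was 14.7 points (9.02 to 20.2, Fisher's exact test, adjusted p = 2.01e-06). Over all these alternatives its adjusted p ran from 5.11e-18 to 1 (Fisher's exact test).

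The letters in and around the core were not those of promoters at large. Among the cores nearest the centre, GACGTG made up 21.2% and TACGTG 20.4%, against 11.5% and 5.51% of the cores nearest to annotated start sites, 1 for each of the 76209 start sites with a core within 100 bp. In contrast, GGCGTG made up 10.7% against 25.1%, while CACGTG was at 9.40% and 9.85%. The core itself began with A in 60.5% against 34.8%. The base before it was T in 32.2% against 18.6%, and G stood there in 31.9% against 36.6%. The base that follows the core was C in 45.9% of these peaks and in 25.5% of the start sites. Most of these letters were shared with the other groups of replicate 1 peaks. In shared promoter peaks and in those away from start sites, in that order, the core began with A in 66.9% and 74.8%. Before it stood T in 30.1% and 39.7%, and G in 39.9% and 27.3%. C followed it in 44.2% and 39.0%. TACGTG made up 20.2% and 27.5%, GACGTG 30.1% and 22.1%, and GGCGTG 9.82% and 5.19%. All these shares are a description, with no test.

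Of the 14 motifs, GACGTG alone passed the threshold against shared promoter peaks. It lay within 100 bp of the centre in 270 peaks (30.1%, Wilson 95% interval 27.2 to 33.1) and in 41.8% of shared promoter peaks, a difference of -11.7 points (-19.7 to -4.08, Fisher's exact test, adjusted p = 0.0108). When peaks within 1 kb of a replicate 2 peak were counted as shared, the difference was -7.41 points and did not pass, and over the alternatives the adjusted p ran from 0.00065 to 0.118 (Fisher's exact test). At all start sites 5.14% of windows held it. TACGTG, in 24.9% of the peaks and 2.39% of all start site windows, passed in neither comparison, with 26.6% of shared promoter peaks (Fisher's exact test, adjusted p = 0.831) and 29.3% of replicate 1-only peaks elsewhere (adjusted p = 0.254). CACGTG, the E-box that MYC and MAX also read, was in 16.5% of the peaks, 18.6% of the shared ones, 16.7% of those away from start sites and 4.38% of all start site windows. TGCGTG was in 20.4% of the peaks and 6.06% of all start site windows, and like CACGTG it passed in neither comparison. Each of these hexamers contains the core, so their shares overlap with it.

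Promoter letters set these peaks apart from replicate 1-only peaks elsewhere in the genome. GGGCGG, the GC box read by SP1, lay in 59.4% of the promoter peaks and 17.6% of the others, a difference of 41.8 points (36.8 to 46.3, Fisher's exact test, adjusted p = 9.58e-49), and in 29.3% of all start site windows. GGCGTG was in 25.4% against 11.5% (Fisher's exact test, adjusted p = 7.78e-09), and in 10.8% of all start site windows. CCGGAAG, an ETS family site, was in 10.4% against 1.58% (Fisher's exact test, adjusted p = 1.32e-09), and in 6.70% of all start site windows. Shared promoter peaks held GGGCGG in 59.9%, GGCGTG in 20.9% and CCGGAAG in 9.04%, with no difference from them past the threshold. The windows at promoters were also richer in G and C, with a median of 69.2% against 54.2% and 20 CpG against 6. The part of base composition in these differences was not tested.

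The opposite held for TGANTCA, the site of AP-1. It was in 62 promoter peaks (6.90%) and in 22.5% of replicate 1-only peaks away from start sites, a difference of -15.6 points (-19.99 to -11.54, Fisher's exact test, adjusted p = 2.13e-14), and in 4.81% of all start site windows. CACAG, sought as a letter string reported beside HIF sites, was in 39.3% against 57.9% (Fisher's exact test, adjusted p = 1.32e-09) and in 46.4% of all start site windows. The NRF1 palindrome was in 13 promoter peaks (1.45%), in 0 of 444 peaks elsewhere (Wilson upper bound 0.858%, Fisher's exact test, adjusted p = 0.0235) and in 0.668% of all start site windows. This difference between the peak groups missed the threshold in 4 of 9 alternative settings, and its adjusted p ran from 0.000608 to 0.428 over them (Fisher's exact test). Shared promoter peaks held TGANTCA in 6.21%, CACAG in 36.2% and the NRF1 palindrome in 2.82%, again with no difference from them past the threshold. CCAAT (15.1%), AAGATGG (3.34%) and the CRE palindrome TGACGTCA (1.22%) passed in neither comparison, and were in 24.1%, 5.03% and 1.08% of all start site windows. None of these motifs except GGCGTG contains the core, though neighbouring matches can share bases.

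A total of 68 promoter peaks had no core within 100 bp of the centre. Of these, 29 had one elsewhere in the peak and 39 had none. Their median width was 320 bp and their median GC content 69.9%, against 317 bp and 69.2% over all 898. GGGCGG was in 49 of the 68, against 533 of all 898 (59.4%). TGANTCA was in 8, CCAAT in 5 and CCGGAAG in 11, against 62, 136 and 93 of all 898. These differences were not tested. Peaks at *MAX*, the dimer partner of MYC, at *PKM*, which encodes pyruvate kinase, at *KDM3A*, a histone demethylase, and at *CRLS1*, the cardiolipin synthase, belonged to the 29. The peak over the upstream start site of *PFKP* (chr10:3110505-3110783) held no core, whereas the peak downstream of it (chr10:3111031-3111483) held 2.

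The peaks were narrow and sat on start sites. Their widths ran from 234 to 1048 bp with a median of 317 bp, against 449 bp for shared promoter peaks. The centre lay a median of 96 bp from the nearest start site in either direction, and 455 peaks (50.7%) were centred within 100 bp. It was upstream in 492 peaks and downstream in 396, and in 90 it was more than 500 bp away. By annotation, 46.1% of the centres were in exons, 31.7% in introns and 22.2% between genes.

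**Figure D2:**
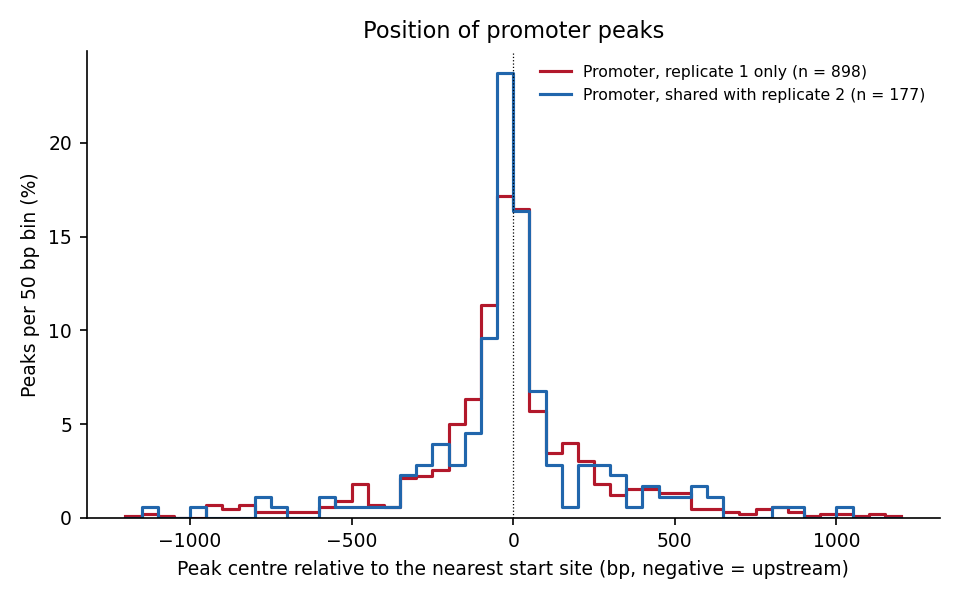
Position of the peak centre relative to the nearest annotated start site, in bp with upstream negative, as percent of peaks per bin of 50 bp, with a line each for the 898 promoter peaks of replicate 1 only and the 177 shared with replicate 2. The fullest bin of the 898 holds 154 peaks, just upstream of the start site.

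The widest peak, 1048 bp, lay at *GBE1*, the glycogen branching enzyme, and held 8 cores. *SMYD2*, *IBA57*, *TFR2* and *NANP* followed, at 876, 828, 788 and 776 bp. The peak at *PLD6*, a mitochondrial phospholipase, held the most cores, 19 in 354 bp, and that at *IBA57* held 14, none within 100 bp of its centre. Across the 898 peaks the median was 2 cores, and 634 peaks (70.6%) held 2 or more. Shared promoter peaks, which were wider, had a median of 3 cores, and 84.2% of them held 2 or more. The narrowest peaks, of 234 bp, included those at *ATXN7L2*, *ZNF692* and *ADK*, the adenosine kinase gene.

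The thresholds of the definition passed close to some known loci. Just inside the 1 kb window were a peak upstream of *ANGPTL4* (988 bp between the start site and the peak) and peaks at *MIB2* and *PTPRJ* (981 bp each). Just outside were those of *SAP30*, *FBRSL1* and *EMD*, at 1008, 1009 and 1016 bp. The peak at *BECN1* had 1 bp between it and a replicate 2 peak, that at *LOX* 6 bp and that at *ACTN2* 26 bp. On the other side, replicate 2 peaks overlapped those at *PELO-AS1*, *EIF4A3* and *HM13* by 13, 53 and 77 bp. Among listed genes, the peaks at *SLC2A1*, *KDM5C*, *VEGFA*, *HK2*, *ALKBH5*, *DDIT4* and *HES1* also lay within 1 kb of a replicate 2 peak, those at *ALKBH5*, *DDIT4* and *HES1* with 510, 893 and 969 bp between. Over all 898 peaks, 53 (5.90%) lay within 1 kb of a replicate 2 peak, and the median distance was 29831 bp. Of the 444 replicate 1-only peaks away from start sites, 8 (1.80%) lay that close, with a median of 51082 bp. For the genes named here as close, the class of the peak depends on the overlap rule.

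The 898 peaks lay within 1 kb of start sites of 1268 genes, of which 926 were protein-coding, 288 lncRNA and 54 of other types. A single gene was reached by 551 peaks, 2 genes by 299 and 3 or more by 48. Start sites on both strands were reached by 302 peaks (33.6%), and protein-coding genes on both strands by 91. The peak at *NDUFB8*, a complex I subunit, for instance also reached a start site of *HIF1AN*, the asparaginyl hydroxylase of HIF1α. The most genes reached by one peak was 6, in the *NOTCH2NLA* and *NBPF10* cluster. The nearest start site belonged to a protein-coding gene for 727 peaks and to a lncRNA for 146. A further peak was present at 35 genes, 10 genes also had a shared promoter peak, and 205 (16.2%) had a replicate 2 peak within 1 kb of one of their start sites, against 8.98% of all genes. For protein-coding genes these shares were 19.1% and 13.9%.

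Of all 20098 protein-coding genes on these chromosomes, 4.61% had such a peak and 0.916% a shared promoter peak, and counts over gene lists are read beside those shares. The 20 lists held 450 genes, with no test made. In glucose entry and glycolysis 10 of 32 genes (31.3%) had a replicate 1-only promoter peak and 11 a shared one, with *SLC16A3* in both counts. In the list of the MYC and MAX network and BHLHE40 repressors the count was 7 of 18 (38.9%), of which *MAX*, *MXI1* and *MLXIP* belong to the network and *BHLHE40*, *BHLHE41*, *HES1* and *ID2* to the repressors and their relatives. None of the 18 had a shared peak, which is near the share of all genes. In glycogen metabolism it was 4 of 15, and in chromatin and RNA dioxygenases 6 of 24.

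**Figure D3:**
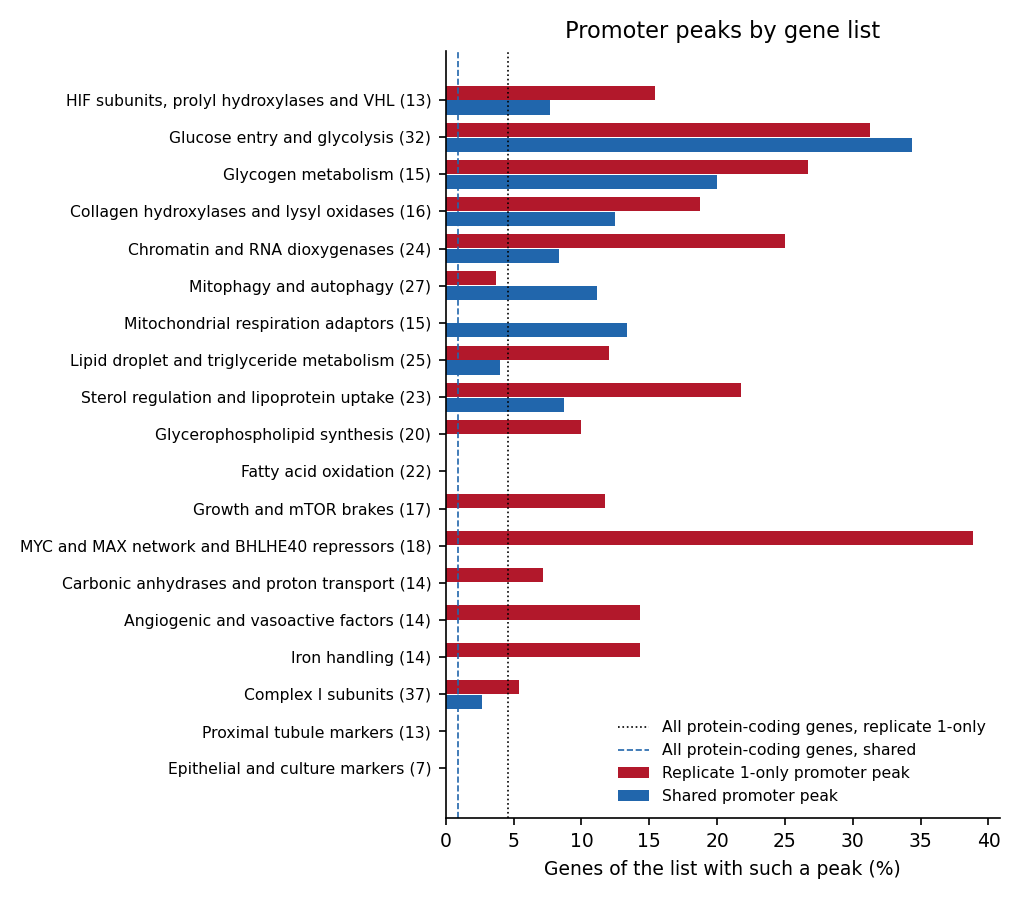
Percent of the genes of each list reported here with a promoter peak of replicate 1 only or with a shared promoter peak. The number of genes is in parentheses and the lines mark the shares over all protein-coding genes, dotted for replicate 1-only peaks (4.61%) and dashed for shared ones (0.916%). The list of the MYC and MAX network and BHLHE40 repressors is highest for replicate 1-only peaks, at 38.9%.

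Peaks were found at glycolysis genes from glucose entry to lactate exit. Pairs of FPKM values here and in the following paragraphs are RNA-seq replicate 1 and then replicate 2, and they show the spread between the libraries. *SLC2A1*, the glucose transporter GLUT1, was at 196.0 and 183.5, with its peak at chr1:43423747-43424244, 56 bp from a replicate 2 peak. *HK1*, a hexokinase, was at 98.6 and 95.2. The gene *HK2*, which encodes hexokinase 2 and shares its name with the cell line, was lower at 23.9 and 23.6, and its peak lay 123 bp from a replicate 2 peak. The phosphofructokinase subunits came next in the pathway, each with a pair of peaks. *PFKP* was at 244.3 and 246.8. *PFKL* was at 107.9 and 107.1. *TPI1*, triose phosphate isomerase, had the highest level of the 10, at 908.7 and 876.6. *ENO2*, the neuronal enolase, was at 131.9 and 103.3, the widest relative gap among the 10. *PKM*, pyruvate kinase, was at 852.3 and 747.4.

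The last steps were lactate output and the block of pyruvate oxidation. *SLC16A3*, the lactate exporter MCT4, was at 221.2 and 213.1, and its peak at chr17:80186709-80186992 was centred at -68 bp from a start site, negative meaning upstream. *PDK3*, a kinase that inhibits pyruvate dehydrogenase, was much lower, at 16.7 and 18.6. Its peak (chrX:24483171-24483532) was centred at -10 bp. The 10 genes had a median mean FPKM of 153.7, against 74.3 over all 32 of the list. Those 32 include the 10 and also the 11 genes with a shared peak, whose means ran from 15.6 (*PDK1*) to 7552 (*GAPDH*). A high level was thus not particular to genes with a replicate 1-only peak.

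Genes of glycogen synthesis stood beside those of glycolysis. *GYS1*, muscle-type glycogen synthase, was at 50.1 and 54.1. *GBE1*, the branching enzyme, was at 51.2 and 52.4, which lies within the spread of *GYS1*. *PGM2*, a phosphoglucomutase, was lower, at 21.2 and 24.9, and its peak was centred at -807 bp. *PPP1R3B*, which targets a phosphatase to glycogen, was at 31.01 and 30.5, with its peak centred at -5 bp.

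In the list of the MYC and MAX network and BHLHE40 repressors, levels were highest for a repressor. *BHLHE40*, a repressor of the clock, was at 67.7 and 67.0. Its relative *BHLHE41* was at 8.07 and 8.35. *MXI1*, which competes with MYC for MAX, was at 35.7 and 38.4. *MAX*, the shared partner, was at 15.2 and 17.9. *MLXIP*, which encodes the glucose-sensing factor MondoA, was at a mean of 19.5. *HES1* and *ID2*, repressors of differentiation, had means of 11.8 and 3.55. The median of the 7 was 16.6, against 10.8 over the list.

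The 6 dioxygenases with a peak use oxygen as a substrate to remove or oxidise methyl marks. *ALKBH5*, an RNA demethylase, was highest at 64.1 and 66.2, and its peak was centred on the start site. *KDM5C*, a histone H3 demethylase, was at 28.9 and 26.98. *KDM3A*, another, was at 29.7 and 25.8, so the libraries of these genes overlapped. A replicate 2 peak lay 57 bp from the peak at *KDM5C*. *KDM2B* was at 15.3 in both libraries. *KDM4B*, at 13.3 and 12.7, had its peak centred at -495 bp. *TET2*, a DNA dioxygenase, was lowest at 3.93 and 4.21.

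Collagen maturation genes with a peak were 3 of 16. *P4HB*, the shared β subunit of collagen prolyl hydroxylase, was at 618.4 and 609.1. *P4HA2*, a catalytic subunit, was at 55.6 and 58.2. *LOX*, lysyl oxidase, which cross-links collagen, was at 31.3 and 33.8. The order of the 3 was the same in both libraries.

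Lipid droplet and triglyceride genes had a peak in 3 of 25. *PLIN2*, which coats lipid droplets, was at 200.1 and 203.7. *LPIN3*, a phosphatidate phosphatase, was at 15.3 and 12.4. *MGLL*, the monoacylglycerol lipase, was at 36.2 and 26.3, the widest relative gap of the 3.

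In sterol regulation and lipoprotein uptake 5 of 23 genes (21.7%) had a peak. *INSIG1*, which holds the sterol sensor in the endoplasmic reticulum, was at 32.2 and 35.7, with peaks centred at -760 bp and 7 bp from start sites. *INSIG2*, its relative, was at 17.99 and 21.2, with a single peak centred at -269 bp. *SREBF1*, the transcription factor of lipid synthesis, was at 33.0 and 31.8. *VLDLR*, a lipoprotein receptor, was at 27.97 and 25.1. *ANGPTL4*, the inhibitor of lipoprotein lipase, was highest at 144.2 and 131.5, and it also had a shared peak.

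Few genes represented the other lists. *CA9*, a carbonic anhydrase used as a marker of hypoxia, was the 1 of 14 genes of acid handling, at 25.3 and 20.2. Its peak (chr9:35673752-35674086) was centred at -6 bp. *VEGFA*, the endothelial growth factor, was at 87.4 and 86.7, with peaks centred at -344 bp and 244 bp from start sites. Replicate 2 peaks lay 237 and 65 bp from them. *VEGFB*, at 14.5 and 14.4, was the other of 2 among 14 angiogenic genes. Of 14 iron genes 2 had a peak. *TFRC*, the transferrin receptor of most cells, was at 94.1 and 100.7. *TFR2*, the iron sensor of hepatocytes, was at 17.03 and 15.8.

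Growth brakes had a peak in 2 of 17 genes and glycerophospholipid synthesis in 2 of 20. *DDIT4*, which restrains mTORC1, was among the most expressed, at 387.6 and 375.7. *SESN1*, a sestrin of the same pathway, was at 7.69 and 9.03. *CRLS1*, cardiolipin synthase, was at 21.5 and 38.4, the widest relative gap among listed genes with a peak, leaving out *HIF3A*. *PTDSS1*, a phosphatidylserine synthase, was at 36.9 and 37.8. Of the HIF system itself 2 of 13 genes had a peak. *HIF3A* was listed at 0 and 0.0197, and *HIF1AN*, the asparaginyl hydroxylase, was at 11.8 and 11.6.

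Other lists were near or below the share of all protein-coding genes for replicate 1-only promoter peaks. Of 27 mitophagy and autophagy genes 1 had a peak (*BECN1*), and of 37 complex I subunits 2 (*NDUFB8* and *NDUFC1*). Of 22 fatty acid oxidation genes and of 15 mitochondrial respiration adaptors 0 did. Shared promoter peaks were at 3 of the 27, 1 of the 37, 0 of the 22 and 2 of the 15, beside 0.916% of all protein-coding genes.

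**Figure D4:**
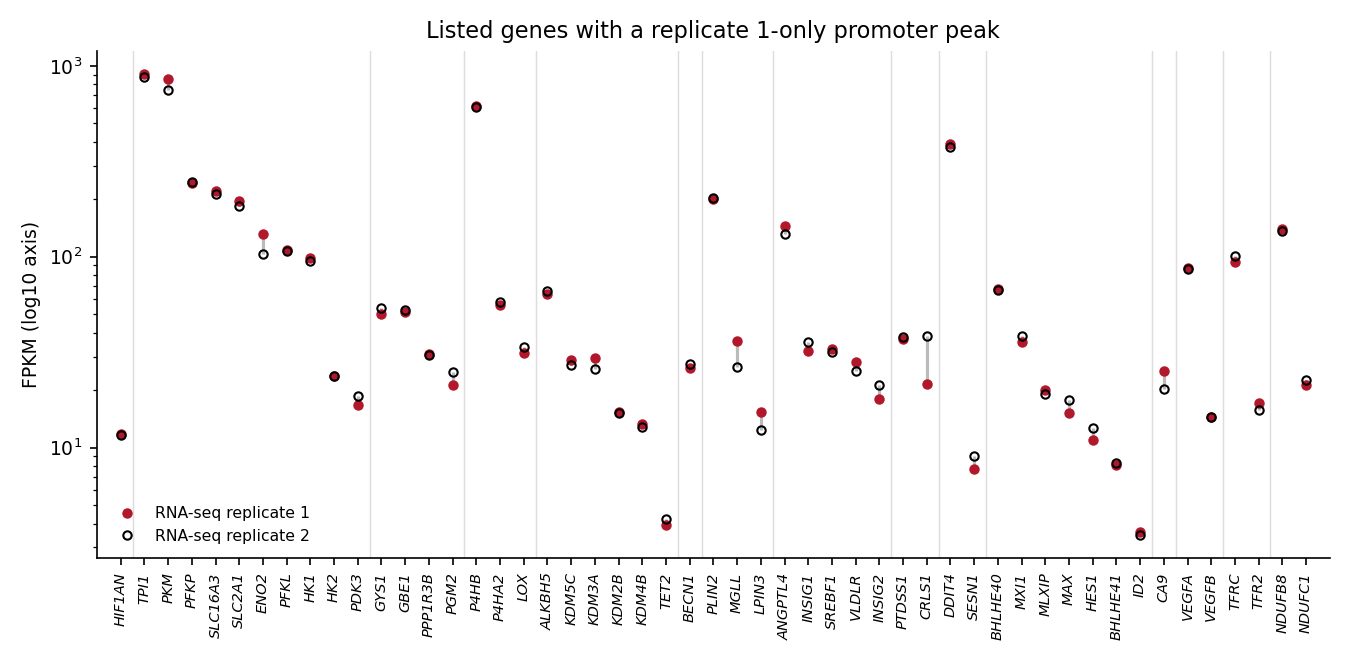
FPKM, on a log10 axis, of the listed genes with a promoter peak of replicate 1 only, grouped by list between grey lines, with filled points for RNA-seq replicate 1, open points for replicate 2 and a grey bar between them. *TPI1* is highest, *ID2* lowest, *CRLS1* shows the widest gap, and *HIF3A* is left out because replicate 1 lists it at 0.

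Genes at these peaks were mostly expressed. Of the 1268 genes, 1159 could be joined to the RNA-seq tables by Ensembl identifier, and 908 of those (78.3%) averaged 1 FPKM or more over the libraries. The median over the 1159 was 8.57 in replicate 1 and 8.70 in replicate 2. For the 904 protein-coding genes, 93.1% were at or above 1, against 59.6% of all 19659 protein-coding genes in both annotations. Their median FPKM was 12.3 and 12.7, against 3.31 and 3.36 over all. Only 9 were listed at 0 in both libraries. Of 210 lncRNA genes at the peaks, 24.8% reached 1, against 5.62% of all lncRNA genes.

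Genes at shared promoter peaks were higher still, with medians of 22.7 and 22.4 over 183 protein-coding genes. The share of promoter peaks that a replicate 2 peak overlapped also moved with expression, so the definition is not independent of it and no test was made. Among promoter peaks whose nearest start site was protein-coding, the replicate 1-only share was 92.9% (39 of 42) where the gene had an FPKM under 1, 89.3% at 1 to 10, 82.0% at 10 to 100 and 67.6% (46 of 68) at 100 or more. Among the 904 genes, the 176 with a replicate 2 peak within 1 kb of a start site had medians of 22.3 and 21.9, and the 728 without one had 11.1 and 11.5.

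**Figure D5:**
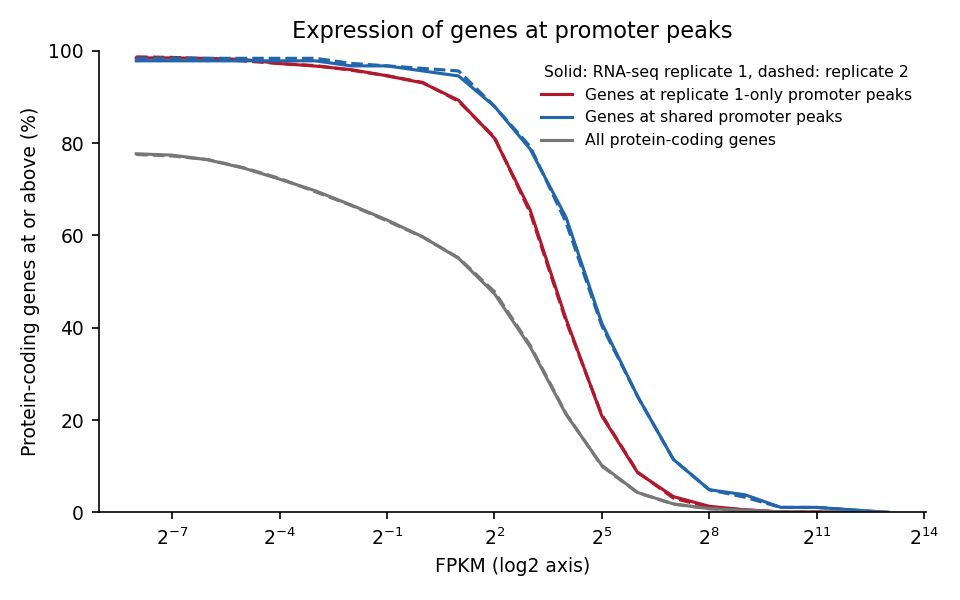
Percent of protein-coding genes at or above each FPKM, on a log2 axis, for genes at promoter peaks of replicate 1 only, genes at shared promoter peaks and all protein-coding genes, with solid lines for RNA-seq replicate 1 and dashed lines for replicate 2. Genes at replicate 1-only peaks lie between the others from an FPKM of 0.0625 to 2048, with a median of 12.3 in replicate 1 against 3.31 over all genes.

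Levels of the 10 most expressed protein-coding genes nearest to a peak ranged from *TMSB10*, which encodes an actin-binding thymosin, at 3491 and 3407, to *EEF1A2*, an elongation factor, at 282.5 and 248.7. Those between them included *TPI1*, *PKM*, *P4HB*, the chaperone *HSP90B1*, the integrin *ITGB1*, *PTMA* and the oxidase subunit *CYBA*.

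A peak need not serve the transcripts that make up a gene's level. Of 868 pairs of a peak and an expressed protein-coding gene, 856 had a transcript in the RNA-seq tables that starts within 1 kb of the peak. The match was incomplete, since 4750 of the 6530 transcripts starting at the peaks (72.7%) were in those tables. The transcripts found gave a median of 91.5% of the gene's FPKM, taken over transcripts in both annotations, which held over 90% of the gene's full FPKM in 807 of the 856 pairs and under 50% in 16. In 456 pairs they gave over 90% and in 83 pairs (9.70%) under 10%. Transcripts at the peak gave 99.6% of *TPI1*, 98.5% of *CA9*, 99.3% of *PLIN2* and all of *DDIT4* and *BHLHE40*.

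Other peaks lay at minor start sites. Transcripts starting there gave 0.0153% of the FPKM of *ITGB1*, 0.312% of *BECN1*, 1.38% of *HIF1AN*, 2.74% of *MLXIP*, 3.71% of *NDUFC1* and 3.74% of *ANGPTL4*. The libraries differed for *NDUFC1* (2.24% and 5.09%) and *ANGPTL4* (5.17% and 2.17%). For *MXI1* the share was 63.0%, and for *PTMA* 19.1%. The upstream peak of *PFKP* served start sites with 76.0% of its FPKM (80.7% and 71.4% in the libraries) and the downstream one 17.8%, which came from 28.2% in replicate 1 and 7.55% in replicate 2. The windows of these neighbouring peaks overlap and hold some of the same start sites, so the shares do not add up. Short-read estimates divide fragments between overlapping transcripts, so these shares are those of the authors' estimate.

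The RNA-seq libraries were close to each other at these genes. Among the 842 expressed protein-coding genes at the peaks, the median absolute log2 ratio between libraries was 0.11, with a pseudocount of 1. Over all 11726 expressed protein-coding genes it was 0.12. Differences of more than 2-fold were seen at 7 of the 842 and at 118 of the 11726. ENSG00000262633, a gene without a symbol, was at 2.52 in replicate 1 and 0.0434 in replicate 2, a log2 ratio of -1.75 that moved to -4.19 with a pseudocount of 0.1. The homeobox gene *HOXA4* was at 9.06 in replicate 1 and 2.36 in replicate 2, a log2 ratio of replicate 2 to replicate 1 of -1.58. The sulfotransferase gene *CHST11* was at 9.02 and 3.01 (-1.32), and *SAR1B*, for a GTPase of vesicle export, at 14.9 and 6.37 (-1.11). *VAPB*, for a protein of the endoplasmic reticulum membrane, went the other way, at 9.03 and 20.8 (1.12). With 2 libraries of the same treatment, these ratios describe the libraries and test no condition.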

How the data were processed

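Peaks and expression values were those the authors deposited. For ChIP-seq, the authors trimmed and filtered reads, aligned them to hg19 by Bowtie2 and called peaks for each replicate from uniquely mapped reads by MACS2. The version, the threshold and the control library are not given in the sources used here. For RNA-seq, the authors mapped reads with HISAT2 and deposited FPKM, TPM and coverage per transcript, estimated with StringTie 1.3.3 on GENCODE 27. These tables hold no read counts and use GRCh38 positions, although the methods name hg19, so genes were joined by Ensembl identifier.

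Peaks were compared with GENCODE 44 mapped to GRCh37. Motifs were sought on both strands within 100 bp of the peak centre, and shares were given with Wilson 95% intervals and compared with Fisher's exact test (two-sided), p-values being adjusted by Benjamini-Hochberg over 28 comparisons at a threshold of 0.05. The code was tested on simulated data. Members and lists were chosen with earlier results of these data known. One list and its gene with a peak are not reported here. Genes named were those of the study's text and of the 20 lists with such a peak, the 10 with the highest FPKM, those of the widest, narrowest and most core-rich peaks, of peaks at the thresholds, of peaks reaching most genes, and with the largest ratio between libraries. Alternatives covered the overlap, promoter window, start sites, motif, motif window and number of cores, flanks, expression unit, FPKM minimum, genes counted, pseudocount and single libraries. Tables and tests were made in scipy 1.17.1, pandas 2.3.3 and numpy 2.4.6 under Python 3.11.15, sequences read with pysam 0.24.0 and plots drawn with matplotlib 3.10.9.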

Additional observations from a re-analysis of the deposited data

How the results depend on the processing

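The number of replicate 1-only promoter peaks ran from 766 with protein-coding start sites only to 1003 with a promoter window of 3 kb, and was 1075 with ChIP-seq replicate 2 left out. With replicate 1 left out no such peak exists. The share with a core was 79.2% within 50 bp, 96.9% within 200 bp, 95.7% in the whole peak, 72.2% for ACGTG alone and 55.7% for at least 2 cores, a setting chosen after seeing the data. Leaving out ChIP-seq replicate 2 gave 92.4%. The difference of that share from shared promoter peaks passed in no setting and changed sign in 7: -0.301 points with replicate 2 peaks within 1 kb removing a peak, -0.355 with a promoter window of 500 bp, -1.63 with protein-coding start sites only, -0.293 within 200 bp, -1.52 in the whole peak, -5.24 for ACGTG alone and -9.29 for at least 2 cores. The difference from replicate 1-only peaks away from start sites lost the threshold with a promoter window of 500 bp (3.82 points), protein-coding start sites only (3.49) and a search of 50 bp (1.02), and reversed to -3.74 for ACGTG alone. It was 16.0 points without ChIP-seq replicate 2, where the 128 shared peaks away from start sites (40.6% with a core) join the other group. For at least 2 cores it was 14.7 points. Of 62 alternatives for the 7 other motif differences, 57 kept direction and side of the threshold. The exceptions were GACGTG against shared peaks (-7.41 points) and the NRF1 palindrome (1.302) where replicate 2 peaks within 1 kb removed a peak, and the NRF1 palindrome with a promoter window of 3 kb (1.296), protein-coding start sites only (1.09) and a search of 50 bp (0.557). The cause was not tested. Some kept differences from replicate 1-only peaks away from start sites changed in size with the search window. GGCGTG was at 6.04 points with a search of 50 bp and 20.7 with 200 bp. CCGGAAG was at 4.56 and 15.7 points, and TGANTCA at -9.39 and -25.2, in the same order. The NRF1 palindrome was at 2.56 points with 200 bp. The difference from flanks was 54.8 points at 500 bp and 68.0 at 2 kb. Median expression, 8.65 FPKM over the genes at the peaks, was 23.9 in TPM, 4.77 for the largest transcript, 12.7 for protein-coding genes and 10.4 for genes of the nearest start site, and the share expressed was 83.4%, 75.1%, 93.1% and 84.7% in the same order. That share was 89.4% with a minimum of 0.1 and 61.9% with 5. Leaving out either RNA-seq library gave medians from 8.57 to 8.70 and shares from 78.1% to 78.5%. With a pseudocount of 0.1 the library ratio of ENSG00000262633 was -4.19 in place of -1.75 and that of *HOXA4* -1.90 in place of -1.58, and 9 genes in place of 7 differed more than 2-fold, a count added after seeing the data. No paired analysis was possible because replicate numbers are shared only between different assays and no test compares groups of libraries. Without peak scores or read depth, a peak missing from replicate 2 cannot be told apart from one below its threshold.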

Other observations

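Cores on the same strand of a promoter peak lay at some distances more than at others. Within 100 bp of the centre, 48 of 898 peaks (5.35%) held cores whose starts lay 4 bp apart, against 1 of 1796 flanking windows and 0.477% of all start sites. A core is 5 bp long, so cores 4 bp apart overlap by a base and form a repeat of CGTG. The 48 peaks held 73 such pairs. Starts 9 bp apart occurred in 46 peaks (5.12%), against 1 flanking window and 0.181% of all start sites. Distances of 14, 24, 8, 12 and 22 bp followed, in 27, 24, 23, 22 and 20 peaks, and each of the others from 5 to 30 bp occurred in 5 to 17. Shared promoter peaks held cores 4 bp apart in 12 of 177 (6.78%) and 9 bp apart in 21 (11.9%). Replicate 1-only peaks away from start sites held cores 4 bp apart in 3.15% and 9 bp apart in 3.38%. At 14 bp these peaks were at 4.73%, against 3.01% of the replicate 1-only promoter peaks. These distances were chosen after their values were seen, have no test, and were not corrected for the larger number of cores per window at the peaks.

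Relative to gene number, chromosomes 20 and 10 held the most replicate 1-only promoter peaks, with 6.95 and 6.87 per 100 protein-coding genes, and chromosome X the fewest, with 2.42.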
